A study of Mus musculus with 16 samples.

Results

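Transcription factors that build and maintain fat cells were followed in the mouse inguinal white adipose tissue (iWAT), a fat pad under the skin of the groin that can hold the inguinal lymph node. They are the 8 listed adipogenic regulators Pparg, Cebpa, Cebpb, Klf15, Ebf2, Zfp423, Rxra and Nr1h3, chosen by name from the 54752 genes of the count table. All 8 were found under 1 Ensembl identifier each, and all 8 passed the filter on low counts that left 19736 genes to test. RNA sequencing covered 16 libraries, 4 for each of 4 genotypes (n = 4 mice per genotype). The mice were labelled as C57BL/6 (a C57BL/6J background per the study's methods) and as females, and 90 days old.

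WT mice were without both mutations. Lepob/+ mice had, in all cells, 1 mutant ob allele of Lep, the gene of the fat-derived hormone leptin, beside 1 normal allele. SOD1G93A mice carried a transgene of mutant human SOD1, which is used as a model of amyotrophic lateral sclerosis and is present in all cells rather than in adipose tissue alone. SOD1G93A-Lepob/+ mice carried both, and came from Lepob/+ females crossed with SOD1G93A males. The study asked whether less leptin alters the adipose tissue of SOD1G93A mice, and the comparisons below ask it of the adipogenic factors.

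In a precursor committed to the fat lineage, the C/EBP protein encoded by Cebpb acts early and switches on Pparg and Cebpa. PPARG and CEBPA then maintain each other's expression and turn on the genes of lipid storage. PPARG binds DNA as a pair with the retinoid X receptor encoded by Rxra, and the same partner serves the liver X receptor alpha encoded by Nr1h3, a sterol sensor. Zfp423 and Ebf2 are best known from precursors, Ebf2 also from brown and beige fat cells, and Klf15 adds to Pparg expression and to the response to glucocorticoids.

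Pparg has more than 1 promoter, and the one furthest downstream, which starts the adipocyte form PPARG2, is a textbook target of C/EBP proteins. It is shown with the promoter of Cebpa because the levels of these 2 genes separate in 2 libraries described later. Both are the 250 bases before a RefSeq start (assembly GRCm38.p6), 5′ to 3′. Capitals mark matches to TTGCNNAA, the letters searched for a C/EBP site, on either strand.
Pparg, the third start of 3, chr6:115421816-115422065, plus strand: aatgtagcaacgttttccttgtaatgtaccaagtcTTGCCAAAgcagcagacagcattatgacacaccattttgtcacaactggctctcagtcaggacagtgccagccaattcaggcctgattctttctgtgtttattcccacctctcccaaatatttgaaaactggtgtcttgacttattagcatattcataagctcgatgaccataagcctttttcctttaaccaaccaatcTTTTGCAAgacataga
Cebpa, its 1 start, chr7:35119043-35119292, plus strand: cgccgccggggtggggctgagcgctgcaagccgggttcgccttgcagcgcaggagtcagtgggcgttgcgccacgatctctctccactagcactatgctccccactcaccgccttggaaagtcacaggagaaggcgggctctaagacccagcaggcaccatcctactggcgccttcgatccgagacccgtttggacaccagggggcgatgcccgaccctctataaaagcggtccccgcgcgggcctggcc
Of the 12 starts found for 7 members, with Ebf2 not among them, this Pparg window and 1 of Zfp423 held a match. The Pparg window held 2 matches, at 215 to 208 and at 16 to 9 bases before the start, and 40.8% of its bases were G or C. The Cebpa window held 0 matches in these letters and had 66.4% G and C. The other 2 Pparg starts had 0 matches each and 82.4% and 63.6% G and C. Over all 32851 RefSeq starts, windows of the same length held at least 1 match in 9.56% and 2 or more in 0.572%. The letters of a CCAAT box, of a GC box (GGGCGG) and of an E-box (CACGTG) were searched on both strands as well. The Pparg window held 2 matches to the CCAAT box, apart from those to TTGCNNAA, as 10.1% of all starts did or exceeded, and the Cebpa window held 0 of all 3. A match in letters is a description and was not tested as a binding site.

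Libraries held 36795376 to 61886313 counts, and their values are given as CPM, a gene's counts scaled to a common library size, after TMM, edgeR's correction for differences in RNA composition. All 16 markers of mature adipocytes were detected, at a summed level of 23730 to 54870 CPM, and none was at 0 counts. The libraries were unequal in other tissue. In 6 libraries, WT replicates 1 and 2, Lepob/+ replicate 3 and SOD1G93A replicates 1, 2 and 4, the 11 lymph node markers, of its stroma and its high endothelial vessels, summed to 650.3 to 1218 CPM, against 76.84 to 303 CPM in the other 10. T cell markers summed to 671.6 to 1367 CPM in those 6 and to 10.68 to 32 CPM in the 10. None of the SOD1G93A-Lepob/+ libraries was among the 6. Lepob/+ replicate 4 held 181900 CPM of 12 skeletal muscle markers, and the library labelled SOD1G93A-Lepob/+ replicate 3 had 0 counts of Xist and 1756 counts of 4 Y-linked genes, against its label as female.

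All 8 factors had a higher mean in the 10 libraries low in lymph node markers than in the 6 high ones, a direction shared by 54.9% of all genes tested. Pparg averaged 159.7 ± 33.5 CPM (SD, n = 10) in the low libraries and 104.2 ± 10.4 CPM (n = 6) in the high ones. Zfp423 was the 1 member whose libraries did not overlap between the classes, at 34.95 to 71.47 CPM against 19.58 to 34.12 CPM. Such a separation was seen for 15.5% of all genes tested. The summed level of the adipocyte markers was 33100 to 54870 CPM in the low and 23730 to 37960 CPM in the high libraries. In bulk tissue, fewer cells of a type and less RNA per cell cannot be told apart.

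Per kilobase of exon, Cebpa was the most abundant member by far, at a mean of 222.5 ± 96.8 CPM per kb (SD, 16 libraries). It exceeded the next member, Pparg, in 16 of 16 libraries. In WT replicate 4, where its own level was low, both were nearly equal, with Cebpa at 42.94 and Pparg at 42.67 CPM per kb. The order went on with Pparg at 47.03 ± 13.02 and Rxra at 37.1 ± 11.8 CPM per kb, and Pparg was above Rxra in 15 of 16 libraries. Nr1h3, at 27.02 ± 6.4 CPM per kb, and Klf15, at 26.94 ± 9.0 CPM per kb, did not differ beyond their spread, with Nr1h3 above Klf15 in 9 of 16 libraries. Below them came Cebpb at 20.56 ± 5.9 CPM per kb. Zfp423, at 7.16 ± 2.4 CPM per kb, and Ebf2, at 3.895 ± 2.4 CPM per kb, the factors best known from precursors, were the least abundant, and Zfp423 was above Ebf2 in 15 of 16 libraries.

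**Figure D1:**
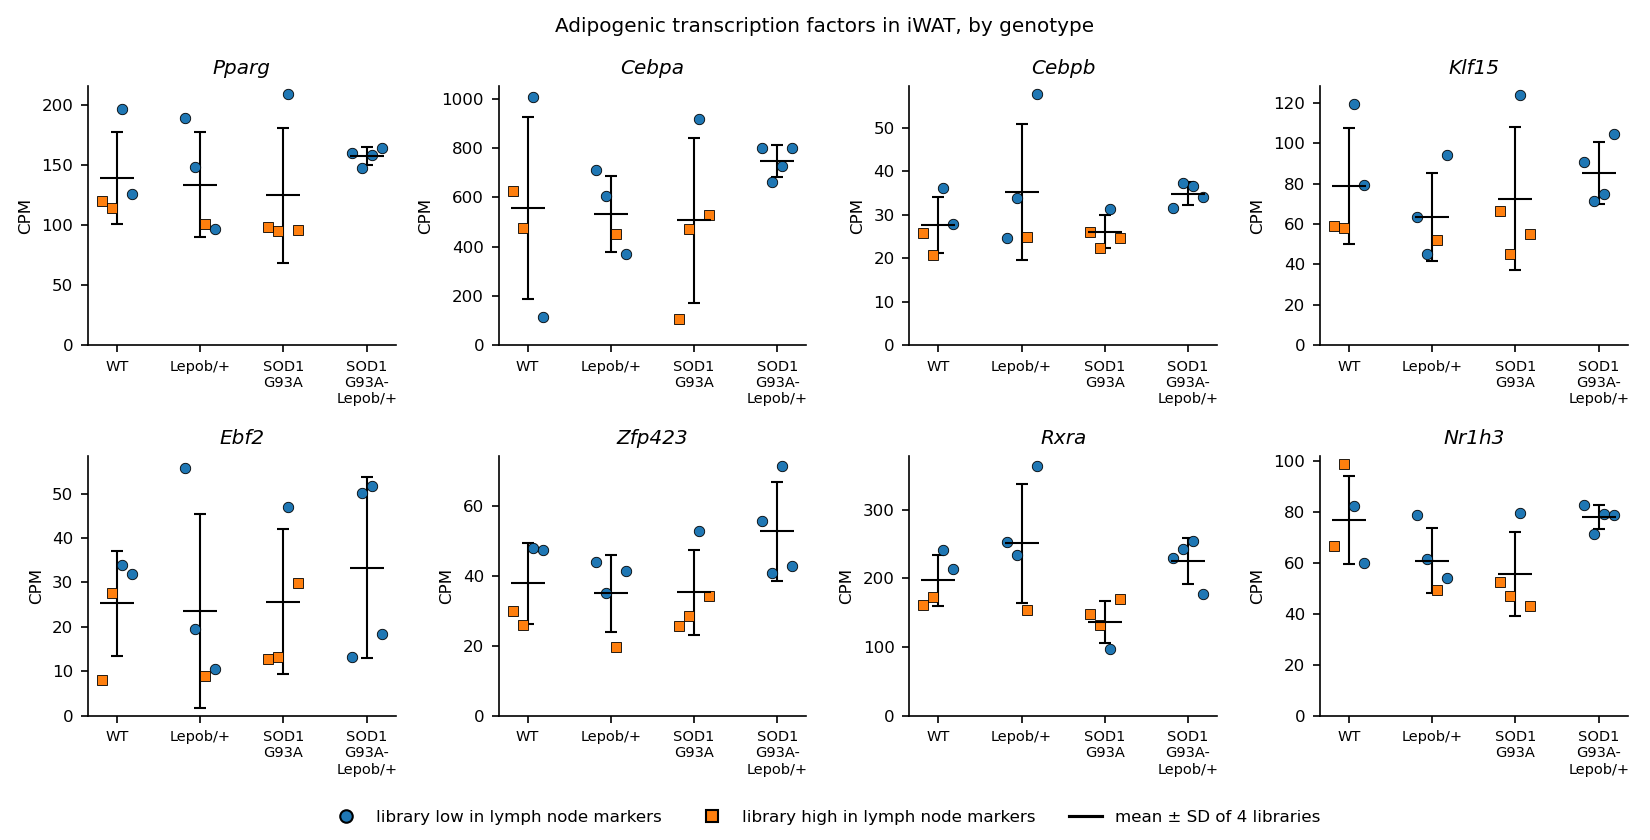
Level of each of the 8 factors in CPM (vertical axis, from 0) in the 4 libraries of each genotype (horizontal axis); circles are libraries low and squares libraries high in lymph node markers, and bars are the mean ± SD of 4 libraries. The 4 SOD1G93A-Lepob/+ libraries, all low in lymph node markers, lie close together for Pparg, at 147.4 to 164 CPM. The other genotypes, which hold both classes, spread from 94.98 to 209 CPM, and 2 libraries stand near 100 CPM for Cebpa.

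Pparg, the nuclear receptor without which no fat cell forms (ENSMUSG00000000440), is located at chr6:115360951-115490399 on the plus strand (GRCm38). Its level was 120.1, 114.2, 196.9 and 126 CPM in WT replicates 1 to 4 and 189.5, 148.3, 100.8 and 96.75 CPM in Lepob/+ replicates 1 to 4. In SOD1G93A it was 98.78, 94.98, 209 and 96.27 CPM, and in SOD1G93A-Lepob/+ 160.3, 147.4, 158.8 and 164 CPM. A single library, replicate 3 in both WT and SOD1G93A, stood far above the other 3 of its genotype, and these were also the 2 libraries with the most adipocyte marker RNA, at 54870 and 51480 CPM. The genotypes overlapped, and the SOD1G93A-Lepob/+ libraries had a coefficient of variation of 4.55% against 27.8% to 45.0% in the other genotypes. The other genotypes mix both lymph node classes, while the SOD1G93A-Lepob/+ libraries are all low. Within classes the coefficient was 9.99% in the 6 high and 21.0% in the 10 low libraries.

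Cebpa, the C/EBP factor of the mature fat cell (ENSMUSG00000034957), lies at chr7:35119293-35121928 on the plus strand. Its level was 627.7, 476.3, 1008 and 113.2 CPM in WT and 713.7, 605.3, 450.6 and 369 CPM in Lepob/+. SOD1G93A libraries had 104.9, 473.6, 920.7 and 528.9 CPM, and SOD1G93A-Lepob/+ libraries 800.9, 663.8, 728.5 and 800.4 CPM. WT replicate 4 and SOD1G93A replicate 1 fell out of the range of the other 14 libraries, which ran from 369 to 1008 CPM. In those 2 libraries Pparg was at 126 and 98.78 CPM and Adipoq, the gene of the fat cell hormone adiponectin, at 2086 and 1428 CPM, within the range of the others for both genes.

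The ratio of Cebpa to Pparg per kilobase made this plain. It was 4.219 to 6.155 in 14 libraries and 1.006 and 1.189 in WT replicate 4 and SOD1G93A replicate 1. The low values rested on 4281 and 4919 counts of Cebpa, so counting error was small beside the gap. Gm45091, a gene on the opposite strand that overlaps Cebpa, had 106 and 105 counts in these libraries, within its range of 32 to 181 counts in the others. The strand setting of the counting is not given in the sources used here, so reads in the stretch shared with Cebpa cannot be assigned with certainty. The 2 libraries belong to different genotypes and to different lymph node classes. The cause was not tested.

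**Figure D2:**
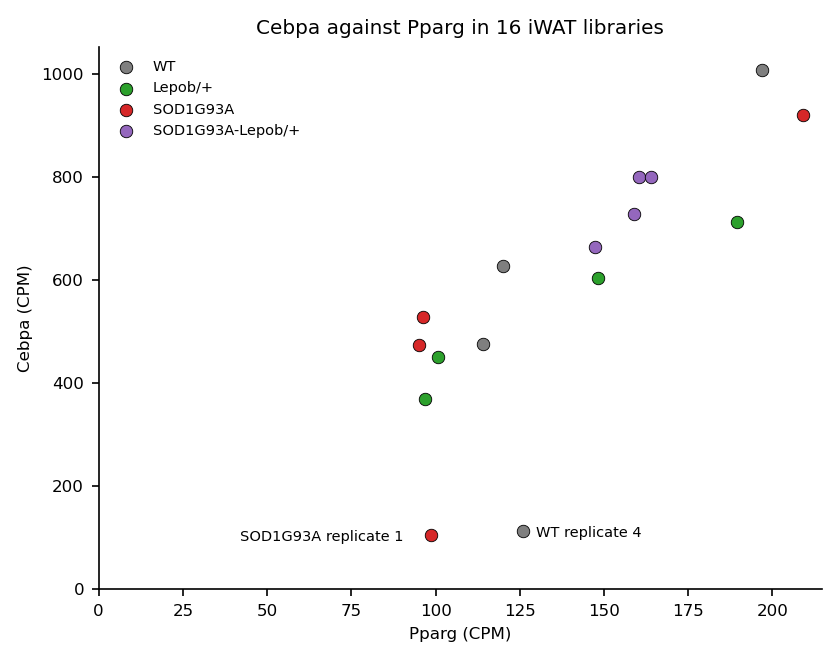
Cebpa (vertical axis, CPM) against Pparg (horizontal axis, CPM) in the 16 libraries, coloured by genotype. Of these, 14 libraries lie along a rising band with Cebpa at 369 to 1008 CPM, and WT replicate 4 and SOD1G93A replicate 1 lie below it at 113.2 and 104.9 CPM.

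Cebpb, the early C/EBP factor (ENSMUSG00000056501), lies at chr2:167688915-167690418 on the plus strand. Its level was 25.79, 20.6, 36.08 and 27.84 CPM in WT and 24.7, 33.8, 24.75 and 57.65 CPM in Lepob/+. In SOD1G93A it was 25.99, 22.29, 31.2 and 24.7 CPM, and in SOD1G93A-Lepob/+ 31.46, 37.32, 36.53 and 34.01 CPM. The highest value belonged to Lepob/+ replicate 4, the library rich in skeletal muscle RNA. All SOD1G93A-Lepob/+ libraries were above all SOD1G93A libraries, the nearest pair being 31.46 and 31.2 CPM. Cebpb overlaps Tmem189 on the opposite strand, and since the strand setting of the counting is not given in the sources used here, reads in the shared stretch cannot be assigned to 1 of them with certainty.

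Klf15, a Krüppel-like zinc finger factor (ENSMUSG00000030087), lies at chr6:90462576-90475238 on the plus strand and overlaps no other gene. Its level was 59.28, 57.93, 119.6 and 79.14 CPM in WT and 63.33, 44.95, 52 and 94.26 CPM in Lepob/+. SOD1G93A libraries had 66.51, 44.92, 124.1 and 55.11 CPM, and SOD1G93A-Lepob/+ libraries 91.01, 71.25, 74.83 and 104.7 CPM. As for Pparg, replicate 3 was highest in WT and in SOD1G93A, and the genotypes overlapped.

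Ebf2, of precursors and beige fat cells, had the largest relative spread of the 8 members. Ebf2 (ENSMUSG00000022053, chr14:67233292-67430918, plus strand) was at 8.01, 27.59, 33.89 and 31.84 CPM in WT and 55.67, 19.43, 8.89 and 10.42 CPM in Lepob/+. It was at 12.73, 13.1, 47.03 and 29.85 CPM in SOD1G93A and 13.15, 50.07, 51.77 and 18.34 CPM in SOD1G93A-Lepob/+. Within each genotype the highest Ebf2 level was 3.70 to 6.26 times the lowest. Its coefficient of variation over 16 libraries was 61.5%, against a median of 21.0% for the 5989 genes within a factor of 2 of its level. For Cebpa the same values were 43.5% and 28.7%, and the remaining 6 members ranged from 23.6% to 33.3%. Ebf2 overlaps 5 genes on the opposite strand.

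Zfp423 (ENSMUSG00000045333, chr8:87661810-87959595, minus strand), a zinc finger factor that marks committed precursors, was at 29.96, 25.88, 47.81 and 47.46 CPM in WT and 43.84, 34.95, 19.58 and 41.33 CPM in Lepob/+. It was at 25.67, 28.48, 52.73 and 34.12 CPM in SOD1G93A and 55.7, 40.8, 71.47 and 42.66 CPM in SOD1G93A-Lepob/+. The highest value came from the library labelled SOD1G93A-Lepob/+ replicate 3, whose Xist and Y-linked counts go against its label.

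Rxra (ENSMUSG00000015846, chr2:27676440-27762957, plus strand), the partner of PPARG and of the liver X receptors, showed another pattern. WT libraries had 160.8, 173.1, 240.8 and 213.5 CPM and Lepob/+ libraries 252.6, 233.8, 154.3 and 364.2 CPM. SOD1G93A libraries had 148.3, 131.4, 96.82 and 169.3 CPM, and SOD1G93A-Lepob/+ libraries 229.9, 242.1, 253.9 and 177.7 CPM. The lowest of all 16 was SOD1G93A replicate 3, in which Pparg was at its highest level, and the highest was the muscle-rich Lepob/+ replicate 4. All SOD1G93A libraries lay below all SOD1G93A-Lepob/+ libraries.

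Nr1h3 (ENSMUSG00000002108, chr2:91184061-91202834, minus strand), the liver X receptor of fat and macrophages, was at 66.69, 98.92, 82.49 and 59.92 CPM in WT and 78.72, 61.64, 49.21 and 54.29 CPM in Lepob/+. It was at 52.74, 46.87, 79.88 and 43.29 CPM in SOD1G93A and 82.91, 71.55, 79.36 and 78.92 CPM in SOD1G93A-Lepob/+. In SOD1G93A, 3 libraries lay below all SOD1G93A-Lepob/+ libraries and replicate 3 lay among them. Nr1h3 overlaps Gm13783 on the same strand, which had 0 to 7 counts in these libraries.

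The first comparison asked what 1 mutant Lep allele does in the absence of the transgene. None of the 8 members was called in Lepob/+ against WT at an adjusted p under 0.05 (edgeR), beside 0% of all genes. At an unadjusted p under 0.05, 0 of 8 members passed, beside 4.37% of all genes, and no member had genotypes that did not overlap, beside 0.907% of all genes. Members were higher in 2 cases and lower in 6, with a median log2 fold change of -0.08 against 0.03 over all genes. That split turned to 6 higher and 2 lower under voom, with libraries scaled to the adipocyte markers, and without WT replicate 3 or Lepob/+ replicate 3, at medians of 0.26, 0.13, 0.11 and 0.06. The medians of all genes were then 0.02, 0.25, 0.02 and 0.02. The smallest p belonged to Nr1h3, with a log2 fold change of -0.34 ± 0.21 (SE, edgeR adjusted p = 0.9997). Rxra and Cebpb followed with 0.35 ± 0.24 and 0.35 ± 0.25, and without the muscle-rich Lepob/+ replicate 4, the highest library of both, Rxra was at 0.10 ± 0.22 and Cebpb at -0.01.

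The second comparison asked what the transgene does alone, and used the same 4 WT libraries. No member was called in SOD1G93A against WT (edgeR, 0% of all genes). At an unadjusted p under 0.05, 2 of 8 members passed, both lower, beside 2.56% of all genes, and 0 members were without overlap, beside 2.05% of all genes. Nr1h3 had a log2 fold change of -0.47 ± 0.21 (SE, 0.723-fold, edgeR adjusted p = 0.9985). Rxra had -0.53 ± 0.24 (0.693-fold, edgeR adjusted p = 0.9985). Pparg had -0.16 ± 0.28, and the median of the 8 members was -0.13 against 0.02 over all genes, with 7 of 8 lower. On libraries scaled to the adipocyte markers 6 of 8 were higher, at a median of 0.13 against 0.32 over all genes. Without WT replicate 3, 6 of 8 were higher as well, at a median of 0.06 against 0.04 over all genes.

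Lymph node markers differed between these genotypes as well, since 3 SOD1G93A and 2 WT libraries were high in them. With the lymph node marker level as a covariate, 4 members were higher and 4 lower at a median of 0.02, Nr1h3 stayed at -0.43 ± 0.19 (edgeR adjusted p = 0.9999), and Rxra was at -0.42 ± 0.25. Without the 6 high libraries, SOD1G93A kept replicate 3 alone, whose spread was assumed to be that of the other genotypes. Then 6 members were higher, at a median of 0.23. Rxra was at -1.25 ± 0.33 (edgeR adjusted p = 1), Nr1h3 at 0.15 and Pparg at 0.35. Without SOD1G93A replicate 3, by contrast, Pparg was at -0.55 ± 0.24 (edgeR adjusted p = 0.607) and all 8 members were lower, with a median of -0.50. The SOD1G93A libraries left were then all high in lymph node markers, against 2 WT libraries high and the rest low.

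**Figure D3:**
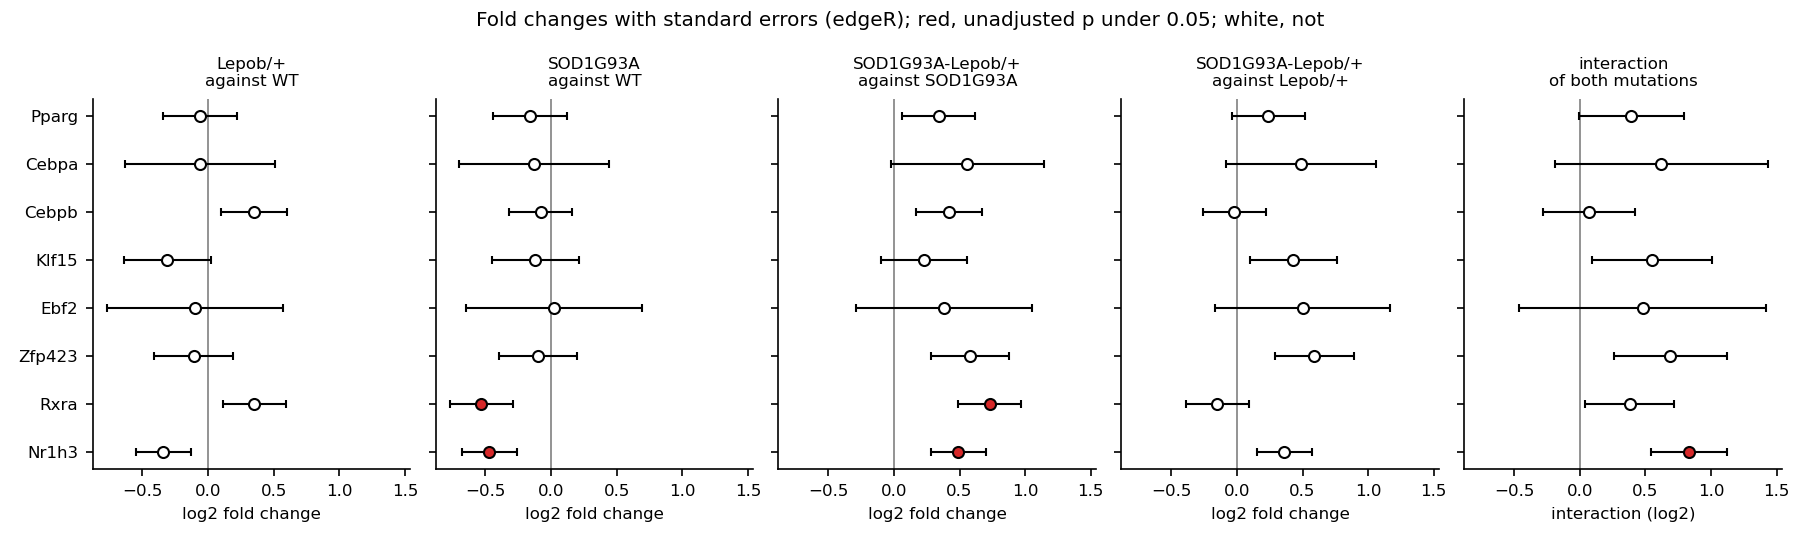
Log2 fold change of each member (points) with its standard error (bars) in 4 comparisons and log2 interaction in the fifth, from edgeR; red points have an unadjusted p under 0.05, and no member passed after adjustment. All 8 members lie to the right of 0 in SOD1G93A-Lepob/+ against SOD1G93A and in the interaction, with medians of 0.45 and 0.51. On libraries scaled to adipocyte markers 5 and 3 of the 8 do, a scaling that cannot decide the direction of members that follow those markers.

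The third comparison, SOD1G93A-Lepob/+ against SOD1G93A, asked what the mutant Lep allele does in mice with the transgene. No member was called (edgeR, 0% of all genes), although all 8 values were positive, with a median log2 fold change of 0.45 against 0.00 over all genes. On libraries scaled to the adipocyte markers 5 of 8 were positive, and with the lymph node level as a covariate 4. At an unadjusted p under 0.05, 2 of 8 members passed, both higher, beside 16.5% of all genes. Rxra had a log2 fold change of 0.73 ± 0.24 (SE, 1.66-fold, edgeR adjusted p = 0.261). Nr1h3 had 0.49 ± 0.21 (1.40-fold, edgeR adjusted p = 0.273). Zfp423 was next with 0.58 ± 0.30 (edgeR adjusted p = 0.345). For Rxra and Cebpb the 4 libraries of each genotype did not overlap, 2 of 8 members beside 7.18% of all genes. The other 5 members had values from 0.23 for Klf15 to 0.56 for Cebpa, with standard errors of 0.25 to 0.67.

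Other tools called members in this comparison. With voom and quality weights, which give libraries that stand apart less weight, 6 of 8 members were called, beside 31.7% of all genes. They were Pparg, Cebpb, Klf15, Zfp423, Rxra and Nr1h3. DESeq2 on the compared genotypes called, among the members, Rxra, at a log2 fold change of 0.72 (DESeq2 adjusted p = 0.0156), beside 7.95% of the genes it gave an adjusted p. DESeq2 on all libraries called 0 members in the 5 comparisons, in the order given here beside 1, 3, 562, 70 and 51 genes in all.

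The same comparison set 3 libraries high in lymph node markers against none. T cell markers ranged from 14.47 to 1367 CPM in SOD1G93A and from 10.68 to 23.61 CPM in SOD1G93A-Lepob/+, while summed adipocyte markers ranged from 23730 to 51480 CPM and from 45490 to 49890 CPM. With the lymph node covariate, 0 of 8 members passed at an unadjusted p under 0.05, beside 794 of 19736 genes, and the members' median was 0.03. Rxra was then at 0.52 ± 0.30 (edgeR adjusted p = 1) and Zfp423 at -0.02. The libraries were also scaled to the adipocyte markers in place of TMM, by the median shift of the markers' log counts in each library. The members' median was then 0.04, when that of all genes moved to -0.53. At an unadjusted p under 0.05, 0 of 8 passed, beside 5434 of 19736 genes. Pparg, Cebpa and Nr1h3 followed those markers, at a rho of 0.93 to 0.98 in the 10 low libraries, as described below. The scaling takes out what a member shares with the markers, so it cannot decide the direction of these members in any of the comparisons. That scaling moved the median of all genes to 0.25 in Lepob/+ against WT, 0.32 in SOD1G93A against WT, -0.54 in SOD1G93A-Lepob/+ against Lepob/+ and -0.87 in the interaction.

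Rxra was higher in SOD1G93A-Lepob/+ than in SOD1G93A under all 29 alternatives, at 0.15 to 1.23, the lowest on the scaling to adipocyte markers. Without the 6 high libraries, which left SOD1G93A with replicate 3, it was at 1.23 ± 0.32 (edgeR adjusted p = 1), while the median of the members was -0.16 and Nr1h3 was at -0.03. Without SOD1G93A replicate 3 all 8 members were higher, at a median of 0.72. Of these, 4 members had an unadjusted p under 0.05, beside 5635 of 20103 genes tested. They were Pparg at 0.72 ± 0.24, Zfp423 at 0.85 ± 0.30, Rxra at 0.60 ± 0.25 and Nr1h3 at 0.73 ± 0.19 (edgeR adjusted p = 0.0850). The SOD1G93A libraries left were all high in lymph node markers and the SOD1G93A-Lepob/+ libraries all low. Genotype and lymph node class cannot be told apart in that fit. Cebpa moved from 0.56 ± 0.58 to 0.23 ± 0.50 without SOD1G93A replicate 1, its low library.

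The fourth comparison, SOD1G93A-Lepob/+ against Lepob/+, used the same SOD1G93A-Lepob/+ libraries and asked what the transgene does in mice with the mutant allele. No member was called (edgeR, 0% of all genes), 0 of 8 passed at an unadjusted p under 0.05, beside 8.24% of all genes, and 0 were without overlap, beside 2.35%. Members were higher in 6 cases, with a median of 0.39 against -0.06 over all genes. On the scaling to adipocyte markers they were higher in 3 cases, with a median of -0.08 against -0.54 over all genes. Zfp423 led with a log2 fold change of 0.59 ± 0.30 (edgeR adjusted p = 0.618). Nr1h3 had 0.36 ± 0.21 and Klf15 0.43 ± 0.33. Rxra, which set the transgenic genotypes apart in the third comparison, had -0.15 ± 0.24 here.

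The interaction asked whether the effect of the mutant Lep allele differed between mice with and without the transgene. No member passed after adjustment (edgeR, 0% of all genes), and 1 of 8 passed at an unadjusted p under 0.05, beside 7.98% of all genes. It was Nr1h3, with a log2 interaction of 0.83 ± 0.29 (SE, edgeR adjusted p = 0.564). Its mean was 77.01 ± 17.4 CPM (SD, n = 4) in WT, 60.96 ± 12.9 in Lepob/+, 55.69 ± 16.6 in SOD1G93A and 78.19 ± 4.8 CPM in SOD1G93A-Lepob/+, so that each mutation alone came with a lower mean and both together with one close to WT. With the lymph node covariate Nr1h3 was at 0.73 ± 0.28 (edgeR adjusted p = 0.804), and without the 6 high libraries at 0.13 ± 0.31. Zfp423 and Klf15 had interactions of 0.69 ± 0.43 and 0.55 ± 0.46. All 8 members were positive, with a median of 0.51 against -0.09 over all genes. On the scaling to adipocyte markers 3 of 8 were, at a median of -0.13 against -0.87 over all genes, and without the 6 high libraries 4 of 8. Leaving out 1 library moved the members' median of 0.51 to between 0.27, without WT replicate 3, and 0.96, without SOD1G93A replicate 3, and Klf15 over the same range.

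Of 24 listed genes that PPARG and CEBPA turn on, 21 were higher in SOD1G93A-Lepob/+ than in SOD1G93A, beside 50.1% of all genes, and the median was 0.38. At an unadjusted p under 0.05, 3 of the 24 passed higher, beside 4.19% of all genes, and 0 lower, beside 12.3%. With libraries scaled to the adipocyte markers 9 of the 24 were higher, at a median of -0.06, and with the lymph node covariate 11, at a median of -0.01. Angptl4, a PPARG target that inhibits lipoprotein lipase, averaged 471.8 ± 50.0 CPM (SD, n = 4) against 256.1 ± 50.7 CPM, a log2 fold change of 0.88 ± 0.24 (SE, edgeR adjusted p = 0.261). Cidec and Plin4, which encode lipid droplet proteins, had 0.77 ± 0.31 and 0.73 ± 0.30. Of the target list, 13 genes are also on the list of mature adipocyte markers, 15 of whose 16 genes were higher, with a median of 0.43. The scaling to those markers thus keeps the target list close to unchanged by its making and cannot decide its direction. The 12 target genes of the liver X receptors had 5 higher and 7 lower, with a median of -0.06, beside the higher Nr1h3 values.

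Other regulators were counted in the same way in SOD1G93A-Lepob/+ against SOD1G93A. Of 21 further pro-adipogenic factors, 12 were higher and 0 passed at an unadjusted p under 0.05, with a median of 0.05. Of 17 factors that hold adipogenesis back, 3 passed higher, beside 4.19% of all genes, and 1 lower, beside 12.3%. Their median was 0.26, which was -0.27 on the scaling to adipocyte markers and -0.01 with the lymph node covariate. Those higher were Wwtr1, the co-activator TAZ, at 0.68 ± 0.25, Hes1 of the Notch pathway at 0.67 ± 0.25 and Gata3 at 0.90 ± 0.35 (edgeR adjusted p = 0.261 each). The 1 lower was Klf2, a Krüppel-like factor that represses Pparg, at -0.58 ± 0.23 (edgeR adjusted p = 0.262). Of 19 receptor partners and coregulators, 2 passed lower, beside 12.3% of all genes. They were the acetyltransferase gene Ep300 at -0.39 ± 0.16 and the Mediator subunit gene Med1 at -0.45 ± 0.21. On libraries scaled to the adipocyte markers, where the median of all genes is -0.53, 0 of the 21 pro-adipogenic factors and 0 of the 19 partners were higher. None of these genes was called after adjustment (edgeR). Of the lists of other cell types, those of lymphocytes had the lowest medians, -5.87 for 11 T cell and -6.81 for 8 B cell markers, all lower, beside -2.40 for 11 lymph node, -1.16 for 12 skeletal muscle and -0.70 for 8 brown and beige fat markers. Medians were positive for 14 progenitor and fibroblast (0.48), 12 macrophage (0.53), 7 endothelial (0.36) and 9 of 10 mammary epithelial markers (0.70), 1 having failed the filter.

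**Figure D4:**
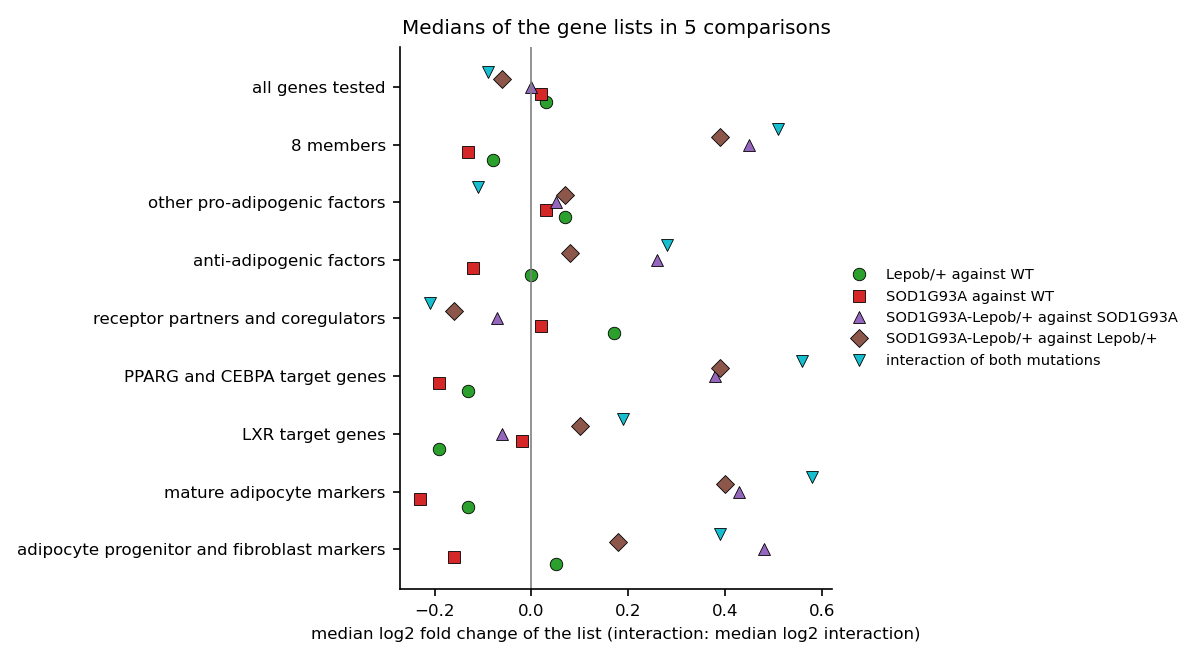
Median log2 fold change (horizontal axis) of the 8 members, of 7 further lists and of all 19736 genes tested in the 5 comparisons, given by marker shape and colour. In SOD1G93A-Lepob/+ against SOD1G93A the medians are 0.45 for the members, 0.38 for PPARG and CEBPA target genes, 0.43 for adipocyte markers and 0.00 for all genes.

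Against WT, 17 of the 24 target genes were lower in Lepob/+, with a median of -0.13, beside 44.4% of all genes. In SOD1G93A 19 were lower than in WT, with a median of -0.19, beside 47.0% of all genes, and 0 passed at an unadjusted p under 0.05 in either comparison (edgeR). The adipocyte marker medians were -0.13 and -0.23, beside member medians of -0.08 and -0.13. On libraries scaled to those markers 15 and 16 of the 24 target genes were higher, at medians of 0.04 and 0.07. As 13 of the 24 are among the scaling markers, that scaling keeps the target list close to unchanged by its making. It cannot decide the direction of the list against WT.

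Whether members varied together from library to library was examined within the 10 libraries low in lymph node markers and, apart from them, within the 6 high ones, since the 2 classes form separate clusters. Libraries of different genotypes were permuted together, so differences between genotypes can enter these correlations and their p-values. Among 28 pairs in the 10 libraries, Pparg and Nr1h3 had a Pearson r of 0.87 (permutation p = 0.00055, adjusted p = 0.0154) and a Spearman rho of 0.78 (permutation p = 0.0102, adjusted p = 0.0951). Without the 2 libraries farthest from the median of Pparg r was 0.79. Cebpa and Nr1h3 had a rho of 0.94 (permutation p = 0.00025, adjusted p = 0.007) and an r of 0.74 (permutation p = 0.0152, adjusted p = 0.213, 0.78 without the 2 farthest). Pparg and Cebpa had a rho of 0.88 (permutation p = 0.00149, adjusted p = 0.0209) and an r of 0.68 (permutation p = 0.0499, adjusted p = 0.336, 0.78 without the 2 farthest). The low Cebpa value of WT replicate 4 is among these 10 libraries, and r there was lower than rho. In the 8 libraries left without the muscle-rich one and the one with Y-linked counts, 0 of the 28 pairs passed by rho and 2 by r, so both rho calls were lost.

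**Figure D5:**
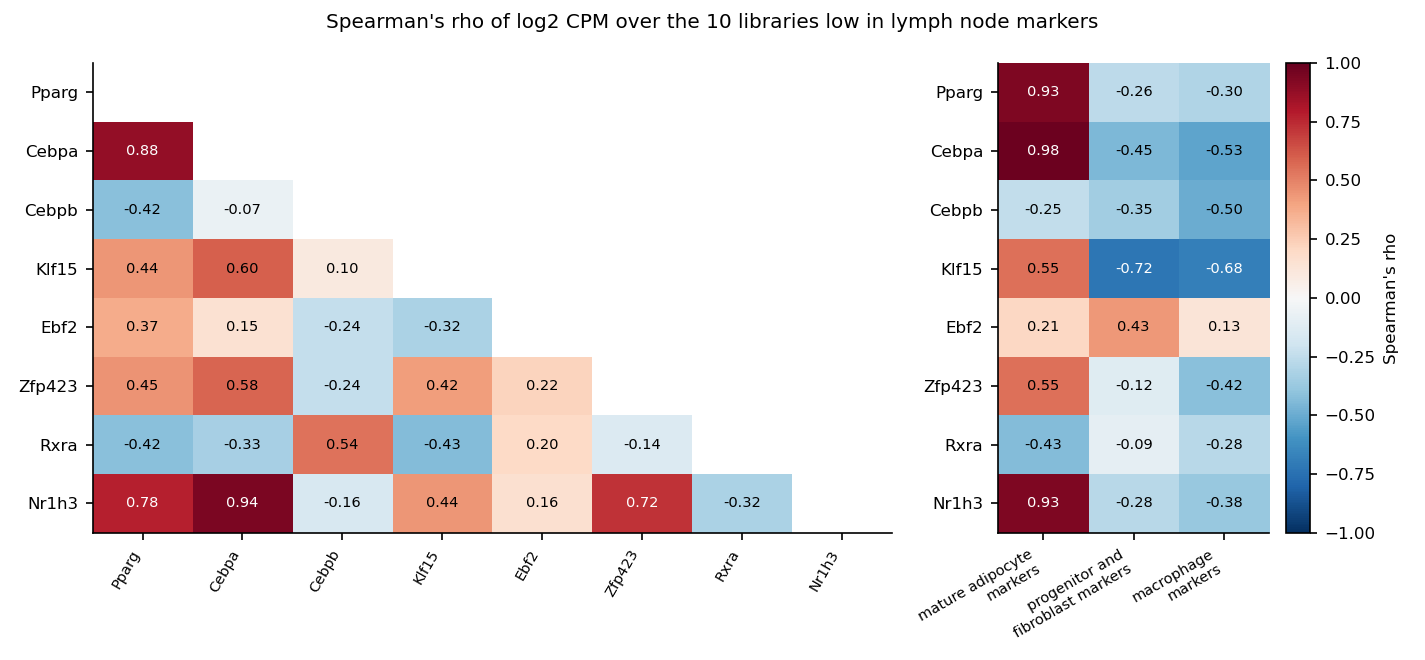
Spearman's rho between members (left) and between members and the mean log2 CPM of 3 marker lists (right) over the 10 libraries low in lymph node markers; red is positive and blue negative. Pparg, Cebpa and Nr1h3 stand out, with rho of 0.78 to 0.94 among themselves and 0.93 to 0.98 with the mature adipocyte markers.

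These same 3 members followed the mature adipocyte markers. Pparg had an r of 0.95 with the mean of that list (permutation p = 0.00011, adjusted p over 24 relations = 0.00132, rho 0.93) and of 0.86 without the 2 farthest libraries. Nr1h3 had 0.92 (permutation p = 3e-05, adjusted p = 0.00072, rho 0.93, permutation adjusted p = 0.00288), and 0.79 without the 2 farthest. Cebpa had a rho of 0.98 (permutation p = 4e-05, adjusted p = 0.00096) and an r of 0.65 (permutation p = 0.0700, adjusted p = 0.253), which was 0.97 without the 2 farthest libraries. The points share tissue make-up. On libraries scaled to the adipocyte markers 0 of the 24 relations passed by r and 4 by rho, and 0 of the 28 pairs by either coefficient. That scaling holds the mature adipocyte list close to level across libraries. It therefore cannot decide whether the relations with that list depend on tissue make-up.

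The other members went their own ways. Klf15 had an r of -0.71 with progenitor and fibroblast markers (permutation p = 0.0194, adjusted p = 0.116, rho -0.72, permutation adjusted p = 0.141), and of -0.79 without the 2 farthest libraries. With macrophage markers it had -0.74 (permutation p = 0.0162, adjusted p = 0.116, rho -0.68, permutation adjusted p = 0.167), and -0.72 without the 2 farthest, and neither relation passed. Rxra had an r of -0.64 with Pparg (permutation p = 0.0655, adjusted p = 0.336, rho -0.42, permutation adjusted p = 0.468), which was 0.26 without the 2 farthest libraries and so rests on those. Ebf2 and Zfp423 had no relation that passed, with an r of -0.34 to 0.44 with the 3 marker lists. In the 6 high libraries 0 of 28 pairs and 0 of 24 relations passed by the exact permutation test, whose smallest two-sided p is 0.00278 there. The highest were those of Ebf2 with progenitor and with macrophage markers, both at an r of 0.91 (exact permutation p = 0.0236 and 0.0167, adjusted p = 0.222 for both) and at a rho of 0.94 and 0.89 (exact permutation adjusted p = 0.350 for both).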

How the data were processed

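iWAT RNA of 16 mice was sequenced. Per the labels and the study's methods, the authors removed reads of low quality, aligned pairs of reads to mm10 (GRCm38) with HISAT2 2.1.0 and used featureCounts 2.0.2 to assign reads with 1 place in the genome to genes. The table the authors deposited gives whole-number counts per Ensembl gene, not normalized. The methods name a stranded library kit and the labels another kit, and the strand setting is not given in the sources used here. Of 54752 genes, 54723 were paired with a symbol. The columns of the table all belong to the 16 libraries.

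Counts were analysed with edgeR 4.0.16 in R 4.3.3: filterByExpr (min.count 10, min.total.count 15), TMM, and a robust quasi-likelihood F test over all 16 libraries, with Benjamini-Hochberg adjustment over 19736 genes and a threshold of 0.05. The standard error is the fold change over the root of F. Log2 CPM used a prior count of 1. Exon lengths and gene positions came from GENCODE M21 (GRCm38). Libraries fell into the lymph node classes at the largest gap in the mean of the lymph node list. Correlations were two-sided, with 100000 permutations for 10 libraries and exact enumeration for 6. Depth was 36795376 to 61886313 counts, and members had at least 313 counts in every library, so the spread between mice exceeds counting error. Alternatives were DESeq2 1.42.0, voom with quality weights (limma 3.58.1), other scalings and filters, the lymph node covariate, a replicate block and libraries left out. The edgeR steps were tested on simulated counts for SOD1G93A-Lepob/+ against SOD1G93A, and the other steps were not. The labels give replicate numbers without naming a pairing of mice, and the main fit treated the mice as unpaired.

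Members were the 8 listed factors, all named, with full statistics for the 3 of smallest p per comparison, and up to 4 genes of smallest p were named from each other list. The members and the 15 other lists, of 188 genes, were chosen with earlier results of these data known. Lepob/+ replicate 4, the library labelled SOD1G93A-Lepob/+ replicate 3 and the 2 libraries low in Cebpa were singled out after their values were seen.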

Additional observations from a re-analysis of the deposited data

Results flagged for a closer look

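Pparg in WT replicate 3, at 196.9 CPM, and in SOD1G93A replicate 3, at 209 CPM, lay farther above the other 3 libraries of their genotype than Dixon's 95% critical value for 4 samples allows. Across the 8 members and 4 genotypes 32 groups were examined, and chance alone flags about 1 in 20 groups. Summed adipocyte markers were at 54870 and 51480 CPM in these libraries, the 2 highest of the 16, and both were low in lymph node markers. The part of the markers in the Pparg values was not tested.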

How the results depend on the processing

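No member was called in any of the 5 comparisons without 1 of the 16 libraries in turn, nor under the other alternatives, apart from SOD1G93A-Lepob/+ against SOD1G93A, where voom called 6 and DESeq2 on the compared genotypes 1. Leaving out 1 library each, 20011 to 20153 genes were tested. The number of members at an unadjusted p under 0.05 was 0 to 1 in Lepob/+ against WT, beside 341 to 2295 genes in all. It was 0 to 2 in SOD1G93A against WT (0 without WT replicate 3 or SOD1G93A replicate 1 or 2), beside 217 to 1541 genes. In SOD1G93A-Lepob/+ against Lepob/+ it was 0 to 2, beside 1057 to 2477 genes. In SOD1G93A-Lepob/+ against SOD1G93A and in the interaction it was 1 to 4, beside 1473 to 5635 and 751 to 3258 genes. Both counts of 4 came without SOD1G93A replicate 3, beside 5635 and 3258 of 20103 genes tested. Fold changes of Cebpb in Lepob/+ against WT ran from -0.01 to 0.51, the lowest without Lepob/+ replicate 4, and those of Pparg in SOD1G93A against WT from -0.55 to 0.05, the highest without WT replicate 3. In SOD1G93A against WT, 0 members had such a p on the scaling to adipocyte markers, which put Pparg at 0.07, beside 288 of 19736 genes. The number was 1 under voom, beside 1785 of 19736 genes, and 1 with the lymph node covariate, beside 565. On the compared genotypes alone it was 1 with edgeR, beside 444 of 18948 genes, and 1 with DESeq2, beside 689 in all. It was also 1 without Lepob/+ 4 and the library labelled SOD1G93A-Lepob/+ 3, beside 617 of 20010 genes. That fit put Cebpb in Lepob/+ against WT at -0.01. With the replicate block the number was 1 as well, beside 385 of 19736 genes. The block changed no other such count, but gave 4 members higher and 4 lower in Lepob/+ against WT. Same-numbered libraries deviated together, with a correlation over 0.1, in 5 of 24 pairs and apart, below -0.1, in 8. Without the high libraries Pparg was at 0.35 and Nr1h3 at 0.15. In SOD1G93A-Lepob/+ against SOD1G93A the number was 0 on the adipocyte scaling, beside 5434 of 19736 genes. With the covariate, which put Zfp423 at -0.02, the number was 0 as well, beside 794. It was 7 under voom, beside 8752 of 19736 genes, and 4 under DESeq2 on the compared genotypes, beside 5051 genes in all. Without the high libraries Nr1h3 was at -0.03. The number was 1 without Lepob/+ 4 and the library labelled SOD1G93A-Lepob/+ 3, beside 3003 of 20010 genes. In SOD1G93A-Lepob/+ against Lepob/+ it was 1 under voom (Klf15), beside 1306 of 19736 genes, and 1 with the covariate (Zfp423), beside 1724. DESeq2 on the compared genotypes gave 1 (Cebpa), beside 1104 genes in all. The adipocyte scaling put Klf15 at -0.11 and Nr1h3 at -0.06. The interaction had 0 on that scaling, with Klf15 at -0.21, beside 5897 of 19736 genes, and 2 under voom, beside 1786. In the 10 low libraries, pairs among members passing by Pearson's r numbered 1, and 0 on the adipocyte scaling and 2 without Lepob/+ 4 and the library labelled SOD1G93A-Lepob/+ 3. Relations with marker lists numbered 2, and 0 and 4 in turn. By Spearman's rho these counts were 2, 0 and 0 for pairs and 3, 4 and 6 for relations. The cause was not tested, and with 4 mice per genotype the spread between mice, not depth, limits these values.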
